A study of Mus musculus with 24 samples.

Results

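The 2 transcripts described here are uc029vff.1 (AK006581) and ENSMUST00000142990 (Gm13307), long intergenic noncoding RNAs (lincRNAs) of mouse chromosome 4. They were chosen by position from a list. The study's supplementary list of testis-specific lincRNAs with a protein-coding gene nearby has 193 transcripts with a probe on the array, and these 2 are the ones on chromosome 4 for which it names Ccl21a, Ccl21b or Ccl21c as a neighbor. The array carries 60804 transcript probes in all, and 1 probe is listed for each of the 2 lincRNAs. Total RNA came from 5 organs of male ICR mice aged 8 weeks, namely testis, brain, liver, kidney and heart, and from 3 cultured lines named F9, GC-1 and GC-2. Each of these 8 groups has 3 arrays. F9 is an embryonal carcinoma line of testicular tumor origin, GC-1 is an immortalized line with features between spermatogonia and spermatocytes, and GC-2 is an immortalized line with spermatocyte features. Each line stands for a germ cell stage only as a culture, and the labels do not say whether its 3 arrays came from separate cultures, so p-values that involve a line may measure technical spread.

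The Ccl21 genes encode a secreted chemokine that is made mainly by lymphatic endothelium and by stromal cells of lymph nodes. It binds the receptor Ccr7 on dendritic cells and lymphocytes and draws them toward lymphoid tissue, as does the related ligand Ccl19. In the mouse, Ccl21 lies in a stretch of chromosome 4 that has been copied several times together with its neighbors Ccl19 and Ccl27, the latter encoding a chemokine known for attracting T cells to skin. A lincRNA is a long RNA without a coding frame whose gene lies apart from protein-coding genes, and many such RNAs are found in testis.

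ENSMUST00000142990 is listed on the minus strand at chr4:41910460-41941611, a span of 31.2 kb. The positions in the supplementary tables were checked against RefSeq genes of the build GRCm38.p6, and all 1110 that could be paired with a RefSeq gene of the same symbol and chromosome overlapped it. The list names 8 protein-coding neighbors for this lincRNA, although RefSeq places 7 of them on the chromosome and 2 of those within 10 kb of it. Although the transcript is listed as intergenic, Gm20878 starts 23 bases beyond its 5′ end on the opposite strand. Ccl21d, which the list calls Gm21541, lies 5717 bases past its 3′ end. The other 5 placed neighbors, among them Ccl21b, are 173176 to 670512 bases away. Ccl21c has a RefSeq position on a sequence that the table used here does not name, so no distance was computed. The pseudogene Ccl19-ps1 lies inside the span of the lincRNA, at chr4:41921279-41923225. Fam205a4, a protein-coding gene that the list does not name for this lincRNA, lies 684 bases beyond its 5′ end.

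**Figure D1:**
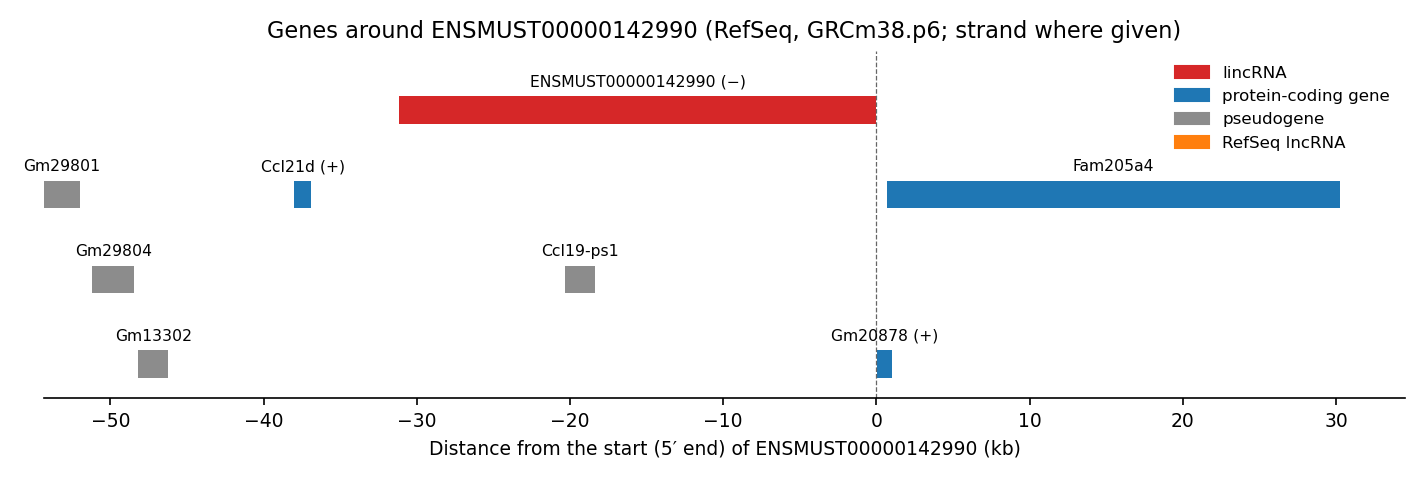
Genes around ENSMUST00000142990, drawn as bars against the distance in kb from the start of the lincRNA, with 1 color per kind of gene and strand signs where RefSeq gives them. Gm20878 begins 23 bases to the right of the start, Ccl21d lies 5717 bases beyond the left end of the lincRNA, and Ccl19-ps1 falls inside it.

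The start of ENSMUST00000142990 falls in the promoter window of Gm20878, which RefSeq sequence gives as 250 bases before to 50 bases after the start of the gene. The window is shown with those of Ccl27a and Ccl27b because all 3 hold the same 24 bases, from the first base of the lincRNA to the first base of Gm20878. These 24 bases are in capitals. Each window is written 5′ to 3′ on the strand of its gene, and the lincRNA reads the other strand, leftward from the first capital.
Gm20878, chr4:41941384-41941683, plus strand: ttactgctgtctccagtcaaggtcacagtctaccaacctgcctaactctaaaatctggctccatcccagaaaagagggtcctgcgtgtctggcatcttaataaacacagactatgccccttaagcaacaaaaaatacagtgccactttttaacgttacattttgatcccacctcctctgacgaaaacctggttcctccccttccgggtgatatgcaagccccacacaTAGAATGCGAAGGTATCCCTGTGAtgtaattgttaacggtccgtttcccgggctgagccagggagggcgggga
Ccl27a, chr4:41774127-41774426, minus strand: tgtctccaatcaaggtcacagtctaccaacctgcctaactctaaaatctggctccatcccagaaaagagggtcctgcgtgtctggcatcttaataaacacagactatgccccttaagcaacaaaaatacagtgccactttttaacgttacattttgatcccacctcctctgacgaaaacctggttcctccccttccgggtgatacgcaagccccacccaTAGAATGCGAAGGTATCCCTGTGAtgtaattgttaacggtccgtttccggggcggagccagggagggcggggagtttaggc
Ccl27b, chr4:42650354-42650653, plus strand: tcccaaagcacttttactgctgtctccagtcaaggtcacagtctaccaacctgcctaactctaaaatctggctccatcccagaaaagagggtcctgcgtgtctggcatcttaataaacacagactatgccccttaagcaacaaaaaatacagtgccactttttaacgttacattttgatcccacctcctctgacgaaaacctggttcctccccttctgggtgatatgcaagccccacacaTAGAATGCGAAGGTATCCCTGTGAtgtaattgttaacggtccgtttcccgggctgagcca
Of 32851 promoter windows in the mouse table, searched on both strands, 7 hold the 24 bases (0.0213%). They belong to 6 genes, namely Ccl27a, Gm20878, Gm13306, Gm21953, Gm21586 and Ccl27b, and in each the bases lie on the strand of the gene. The windows of Gm21953 and Gm21586 are identical to that of Gm20878 over all 300 bases. Those of Ccl27b and Gm13306 differ from it at 1 of 287 aligned bases. The stretch where the lincRNA starts is thus found again at the start of other genes of the copied region. Whether the probe of ENSMUST00000142990, or that of uc029vff.1, matches more than 1 copy was not tested, since neither probe sequence was available here.

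uc029vff.1 is listed on the plus strand of a chromosome 4 scaffold that is not joined to the main sequence, at positions 83355 to 115083 of chr4_JH584294_random, a span of 31.7 kb. Its listed neighbors are Ccl21a and Gm1987. The RefSeq table places Ccl21a on the main sequence of chromosome 4, so no distance was computed. The promoter windows of 4 Ccl21 genes and copies were compared and differ at few bases. The genes themselves were not compared. The promoter windows of Ccl21d, the nearest placed copy to ENSMUST00000142990, and of Ccl21a, the neighbor listed for uc029vff.1, are shown for this reason. They differ at 2 of 299 aligned bases, which are in capitals.
Ccl21d, chr4:41903363-41903662, plus strand: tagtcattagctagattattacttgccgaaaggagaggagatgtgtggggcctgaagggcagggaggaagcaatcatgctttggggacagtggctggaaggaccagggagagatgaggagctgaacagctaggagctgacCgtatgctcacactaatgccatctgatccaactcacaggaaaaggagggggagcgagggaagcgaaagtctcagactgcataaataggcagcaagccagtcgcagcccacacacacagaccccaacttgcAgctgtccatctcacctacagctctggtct
Ccl21a, chr4:42773942-42774241, minus strand: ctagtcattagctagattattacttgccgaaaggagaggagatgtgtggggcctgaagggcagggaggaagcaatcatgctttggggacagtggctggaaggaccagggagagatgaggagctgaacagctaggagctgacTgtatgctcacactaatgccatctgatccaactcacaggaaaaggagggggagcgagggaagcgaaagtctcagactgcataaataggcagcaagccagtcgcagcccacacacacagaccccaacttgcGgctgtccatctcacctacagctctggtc
The 4 windows compared were those of Ccl21a, Ccl21d, Gm13304 and Gm10591, and that of Ccl21b was not among them. Those of Gm13304 and Gm10591 are identical to each other, and they differ from that of Ccl21d at 1 of 300 bases and from that of Ccl21a at 3 of 299.

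Both lincRNAs gave a strong signal in testis and in no other group. On the 3 testis arrays uc029vff.1 had processed signals of 2159, 1386 and 1551. These are intensities after the background subtraction and detrending of the scanner software, in its own units. ENSMUST00000142990 had 978, 737 and 828 on the same arrays. Both were brightest on the array of testis replicate 1, which also had the brightest 75th percentile over all probes. The software put the error of each of these 6 signals at 10.0% of the signal.

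On the 21 arrays of the other groups, the signal of uc029vff.1 ran from 2.38 to 7.28 with a median of 2.91. That of ENSMUST00000142990 ran from 2.44 to 5.51, also with a median of 2.91. Neither probe was well above background on any of these 21 arrays, so the signals there set upper limits and have no order among themselves. The lowest signal counted as well above background on an array was at most 25.3 on these 21, on liver replicate 1. The dimmest testis signal of uc029vff.1 was 54.7 times that level and that of ENSMUST00000142990 29.1 times, before any scaling between arrays.

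Among the dim spots, 3 of uc029vff.1 were above the negative controls. The weaker flag of the software, a signal positive and significant against the local background, was set for uc029vff.1 on heart replicate 1 (7.28), F9 replicate 1 (6.63) and GC-1 replicate 3 (5.24). These 3 signals also exceeded the level under which 95% of negative control spots of the same array lay, which was 3.04, 3.93 and 3.72. They stayed under the lowest signal counted as well above background there, which was 11.3, 13.7 and 14.3. In each of these groups the other 2 arrays did not carry the flag. For ENSMUST00000142990 the flag was set on brain replicate 2 (3.28) and GC-2 replicate 3 (4.16), both under the negative control percentile of their array, 3.51 and 4.78. The spots of both probes read 5.38 and 5.51 on liver replicate 1, but that array had the highest negative control percentile of the 24, at 13.6 against 2.97 to 4.97 on the others.

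**Figure D2:**
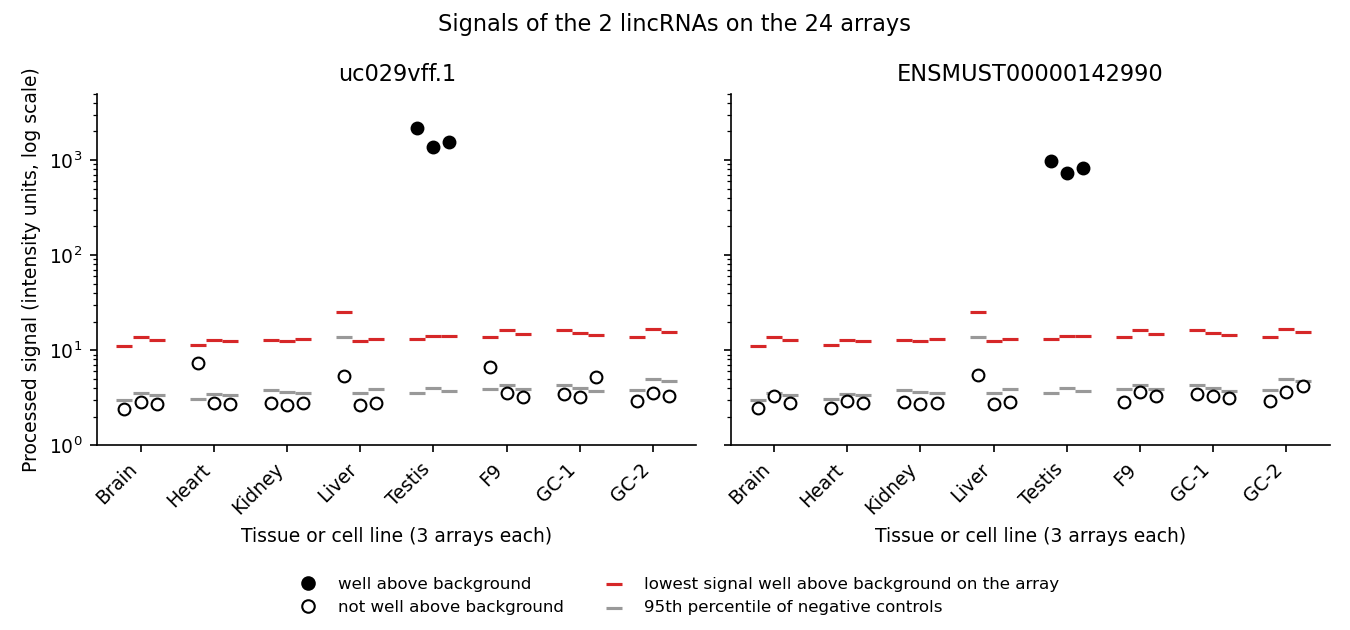
Processed signals (intensity units, log axis) of uc029vff.1 and ENSMUST00000142990 on the 24 arrays, with 1 point per array. The 3 testis points lie between 737 and 2159, and the other 21 points of each lincRNA lie under the red bars that mark the lowest signal well above background on each array.

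For comparisons between groups, log2 signals were used after subtraction of the log2 75th percentile of their array. On this scale uc029vff.1 was at 2.29 ± 0.18 and ENSMUST00000142990 at 1.30 ± 0.04 in testis (SD, n = 3). Levels of different probes are not compared, since probes differ in how strongly they bind. In groups with no array well above background, a dim signal was replaced by the lowest signal well above background on its array, where higher. The fold is then given as a lower limit, which holds for this scaling and background subtraction only. RNA came from whole tissue, in which fewer cells of a type and less RNA per cell cannot be told apart.

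The tissue contrasts served to choose both lincRNAs as testis-specific in the study, from these same arrays, and are given as a description without a test. The level of uc029vff.1 in testis was at least 54.6-fold that in brain, 31.7-fold that in heart, 31.9-fold that in kidney and 11.9-fold that in liver. For ENSMUST00000142990 the limits were 27.6-fold over brain, 16.0-fold over heart, 16.1-fold over kidney and 6.03-fold over liver. Liver gave the lowest limit for both. The 75th percentile of the liver arrays, 30.7 to 49.8, was below that of every other array, which raises the scaled background there. Both met the criteria of a testis-specific transcript used here, as did 5.03% of all probes, but with another background correction (normexp on median signals) ENSMUST00000142990 missed the 5-fold minimum at a log2 difference of 2.10 from the nearest tissue and was no longer called. Of all probes, 12.3% were called higher in testis than in brain, 11.5% than in heart, 11.5% than in kidney and 10.3% than in liver.

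Both lincRNAs were lower in each of the 3 cell lines than in testis. The lines were not used to choose them, whereas the testis arrays were, so the testis side of these tests is not independent of the choice. A probe was called different at a fold of at least 5 with an adjusted p of 0.05 or less, from limma with Benjamini-Hochberg adjustment over all probes. The fits used all signals as read, dim ones included. A p-value printed beside a lower limit therefore tests the fitted difference and not that limit. Across the array, 11.2% of probes were called lower in F9 than in testis, 11.9% lower in GC-1 and 12.4% lower in GC-2. Both lincRNAs were among them in all 3 lines.

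In F9, signals of uc029vff.1 were 6.63, 3.53 and 3.19, and its level was at least 26.1-fold lower than in testis (limma adjusted p = 2.12e-09). In GC-1 they were 3.43, 3.22 and 5.24, at least 35.6-fold lower (limma adjusted p = 9.25e-10). In GC-2 they were 2.91, 3.56 and 3.28, at least 38.8-fold lower (limma adjusted p = 5.62e-10). No cell line array came near a testis array.

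ENSMUST00000142990 read 2.88, 3.64 and 3.28 in F9, at least 13.2-fold lower than in testis (limma adjusted p = 4.23e-09). It read 3.50, 3.32 and 3.13 in GC-1, at least 18.0-fold lower (limma adjusted p = 2.10e-09). It read 2.95, 3.66 and 4.16 in GC-2, at least 19.6-fold lower (limma adjusted p = 1.97e-09). Its testis signals were likewise above all 9 cell line signals. Replicate 1 of every group was on slide 1. Testis replicates 2 and 3 were on slide 2 and those of the 3 lines on slide 3. Line minus testis is thus partly confounded with slide, also for the neighboring transcripts below. The same holds for testis minus heart, since heart replicates 2 and 3 were also on slide 3. On the slide that held 1 array of every group, the lower limits over the 3 lines were 43.2-fold to 59.1-fold for uc029vff.1. For ENSMUST00000142990 they were 19.5-fold to 26.7-fold. These limits come from 1 array per group, with no test.

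No difference between cell lines was called for either lincRNA. Of 6 comparisons, limma called 0, and 1 had an unadjusted p under 0.05, namely uc029vff.1 in F9 against GC-2 (limma adjusted p = 0.0279, under the 5-fold minimum). The test named in the methods also called 0, with 1 unadjusted p under 0.05 and a lowest adjusted p of 0.0898. No array of the 3 lines was well above background, so no fold is given and signals at this level cannot show a difference. By the same rule, 7.16% of all probes differed between F9 and GC-1, 6.95% between F9 and GC-2 and 3.32% between GC-1 and GC-2.

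Many lincRNAs of the same list shared this pattern. Of the 191 others, all were well above background on the 3 testis arrays, 125 were so on no cell line array and 104 (54.5%) on no array outside testis. Of all probes, 9.85% were detected in testis and on no cell line array, and 5.58% on no array outside testis. Among the transcripts called testis-specific here the latter share was 59.2%. Of the 191, 16 were detected in F9, 20 in the GC-1 line and 15 in the GC-2 line. The number called lower than in testis was 155 for F9 (81.2%), 164 for GC-1 (85.9%) and 170 for GC-2 (89.0%). The list was chosen for testis over the tissues, so these counts are a description of it. The lincRNAs were not put in order, since among undetected transcripts a lower limit follows the testis signal of the probe.

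The mRNAs of the neighboring chemokine genes were not analysed here, since the files name probes without symbols and the copies of the supplementary tables used here, several of them shortened, pair only 3478 of them (5.72%) with a transcript. None of the 10 genes listed as neighbors of the lincRNAs and none of the 10 genes of the Ccl21, Ccl19, Ccr7 and Ackr4 list had a named mRNA probe. Ackr4 encodes a receptor that takes up these ligands. Of 62 chemokine ligand and receptor genes in RefSeq, 3 had a named probe, each for a noncoding transcript of the locus, namely Ccl27a, Ccl19 and Cxcl14. None of the lymphatic endothelial markers Lyve1, Prox1, Flt4 and Pdpn had one. Of the 49 marker genes listed to check the groups, 9 had a named probe. For 6 of these the probe reads a noncoding transcript of the locus, not the mRNA. Those of Snap25 and Mobp were detected in brain alone, those of Apoa1 and Mup-ps12 in liver alone, that of Nrap in heart alone and that of Gap43 in brain and the 3 lines. The mRNAs of Stra8 and Zfp42 were detected in testis and F9, and that of Star in testis, GC-1 and GC-2.

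Between 41 and 43 Mb of chromosome 4, 6 other noncoding transcripts had a named probe. Of these 6, 2 were called higher in testis than in heart, 2 than in kidney and 2 than in liver, and none than in brain, against the shares of all probes given above (11.5%, 11.5%, 10.3% and 12.3%). Lower in testis were 1 against brain, 1 against heart, 1 against kidney and 2 against liver, as were 15.1%, 18.2%, 16.3% and 44.7% of all probes. The median scaled log2 difference of the 6 was -0.88 from brain, -1.05 from heart, -1.23 from kidney and -2.04 from liver, and that of all probes -1.06, -1.55, -1.47 and -1.96. Of the probes called against a tissue, 18.7% to 44.9% were higher in testis under this scaling, 51.4% to 53.5% with quantile normalization and 73.6% to 93.4% with no scaling, so a direction given by a count of calls depends on the scaling. Against testis, F9 had 1 of the 6 lower and 2 higher, and GC-1 and GC-2 each had 2 lower and 1 higher. Of all probes, 20.0% were called higher in F9 than in testis, 17.4% higher in GC-1 and 16.7% higher in GC-2. Of the probes called against testis, 57.3% to 64.0% were higher in the line under this scaling, 49.0% to 49.3% with quantile normalization and 11.8% to 19.5% with no scaling.

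The transcripts called in the 2 directions were not the same. Lower in testis than in all 4 tissues was Gm12403 (ENSMUST00000121384), listed inside an intron of another gene. It gave 9130, 9573 and 11799 in testis, 154346, 159385 and 166109 in F9 and 14563, 10342 and 13651 in liver. Its scaled log2 difference in testis was -3.77 from brain, -5.44 from heart, -4.34 from kidney and -3.44 from liver, and the 3 lines were above testis by 4.84 to 6.09 (highest limma adjusted p of the 7 = 2.91e-08). The difference from liver missed the 5-fold minimum under 4 of the alternatives, at -0.33 with no scaling, and that from kidney missed it with no scaling, at -2.32. Gm12404 (ENSMUST00000122839) differed between testis and liver by -2.65 (limma adjusted p = 5.26e-07), a difference that turned to 0.46 with no scaling. Gm12401 (ENSMUST00000118435) was 3.28 higher in F9 than in testis (limma adjusted p = 5.51e-07), and at 1.06 to 1.69 it missed the 5-fold minimum with every other scaling tried.

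The transcripts called higher in testis than in heart, kidney, liver, GC-1 and GC-2 were the same each time. They were a noncoding transcript of Ccl27a (ENSMUST00000151142) and the intergenic RNA AK145626. Against F9, the Ccl27a transcript alone was called higher in testis. In contrast to both lincRNAs, the Ccl27a transcript and AK145626 were well above background outside testis. The sequences of their probes are written 5′ to 3′ and were not aligned to other transcripts.
ENSMUST00000151142, within chr4:41769466-41774100, minus strand: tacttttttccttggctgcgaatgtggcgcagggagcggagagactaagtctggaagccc
AK145626, within chr4:41881155-41882909, minus strand: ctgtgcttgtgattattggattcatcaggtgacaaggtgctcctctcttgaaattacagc
The first shares exon sequence and strand with Ccl27a, so its probe may also read the Ccl27a mRNA. The noncoding transcript of Ccl19 (ENSMUST00000140546) was well above background on all 24 arrays, at 3717 to 11599, and was called in no contrast between testis and another group.

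Cxcl14 lies on another chromosome and encodes a chemokine ligand made by many epithelia. Its noncoding transcript (uc011zab.2) gave 51.3, 46.1 and 38.2 in testis, against 4464, 3387 and 3373 in brain. Its level in testis differed by -7.66 from that in brain, by -6.34 from heart and by -4.57 from kidney (log2, limma adjusted p = 3.85e-12, 3.44e-11 and 1.34e-09). In GC-2 it gave 164, 85.1 and 40.1, and the scaled level was 2.37 above that in testis (limma adjusted p = 9.69e-05). That difference missed the 5-fold minimum at 2.01 without GC-2 replicate 1, at 2.26 without GC-2 replicate 2 or testis replicate 3, and at 0.88 with no scaling. In F9 and GC-1 it was on no array well above background, at 3.37 to 4.23.

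The Ccl27a transcript gave processed signals of 84464, 99703 and 99330 in testis. In brain it gave 8059, 11926 and 10325, and its log2 level in testis was 1.95 ± 0.32 above that in brain (SE), short of the 5-fold minimum under this scaling. It was higher in testis than in heart by 4.92, than in kidney by 5.21 and than in liver by 4.98 (log2, limma adjusted p = 3.04e-09, 1.53e-09 and 2.75e-09). The difference from heart was 4.14 with slide as a block and 4.16 on the slide that held every group. The cell lines differed from each other. F9 gave 324, 160 and 177, GC-2 gave 817, 575 and 583, and GC-1 gave 18.3, 11.3 and 16.4. None of the 3 GC-1 signals was flagged as well above background. The weaker flag, positive and significant against the local background, was set on all 3 GC-1 arrays. These GC-1 signals also exceeded the negative control percentile of their arrays, 4.29, 4.01 and 3.72. Against testis the transcript fell by 6.71 in F9 and by 5.69 in GC-2 on the log2 scale (limma adjusted p = 3.31e-10 and 1.02e-09). In GC-1 it was at least 1852-fold lower (limma adjusted p = 1.15e-11).

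AK145626 gave 5561, 4644 and 5261 in testis. F9 gave 5817, 3450 and 3057, although the 75th percentile was 65.5 to 105 on the F9 arrays and 305 to 384 on the testis arrays. The scaled log2 level in F9 was 1.72 ± 0.22 above that in testis (SE), short of the 5-fold minimum. Without scaling between arrays this difference was -0.38. GC-1 gave 131, 82.1 and 85.9, and GC-2 gave 135, 152 and 152. The level fell by 4.10 in GC-1 and by 3.64 in GC-2 against testis (log2, limma adjusted p = 7.89e-09 and 2.23e-08). Among tissues, testis was above heart by 2.97, kidney by 3.16 and liver by 3.96 (log2, limma adjusted p = 5.05e-05, 2.92e-05 and 2.07e-06). The difference from heart was 3.44 with slide as a block and 3.77 on the slide that held every group. The difference from brain was 2.23 ± 0.48 (SE), under the 5-fold minimum, and without brain replicate 2 it was 2.75 and passed.

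**Figure D3:**
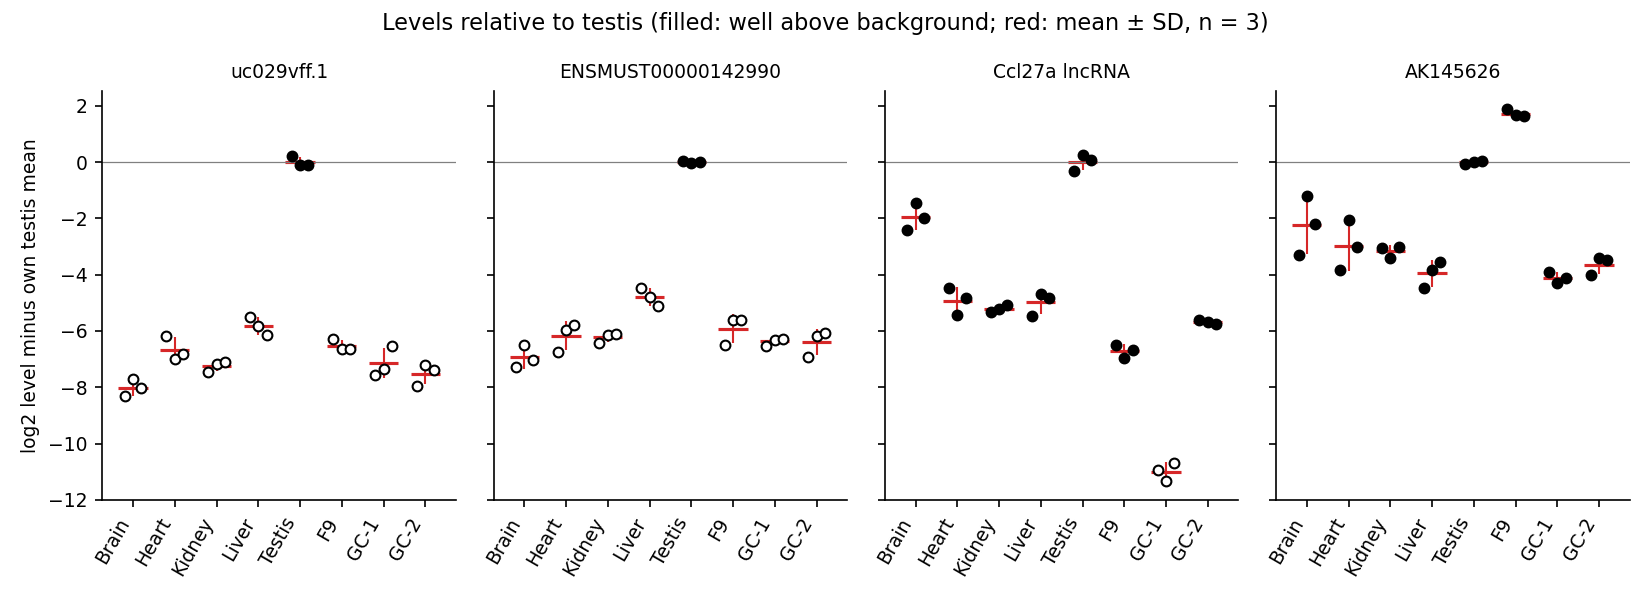
Scaled log2 level minus the testis mean of the same transcript for the 2 lincRNAs, the Ccl27a noncoding transcript and AK145626. There is 1 point per array, open where the signal was not well above background. Red bars give mean ± SD (n = 3). Both lincRNAs are open in every group but testis, the Ccl27a transcript is open in GC-1 alone, and AK145626 is filled in all 8 groups.

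The transcripts most alike to the lincRNAs over the 24 arrays were sought among the 2617 probes detected in testis that the shortened tables name, by Pearson correlation of scaled log2 levels. The 2 lincRNAs had r = 0.98 with each other. For uc029vff.1 this was place 41 of 2616, and for ENSMUST00000142990 it was place 109. The closest to uc029vff.1 were NR_040543 (4930406D18Rik), ENSMUST00000147795 (Gm11193), AK131806, NR_027848 (Pmis2) and AK007034, with r from 0.989 to 0.991. The closest to ENSMUST00000142990 were TCONS_00008268, AK018915, ENSMUST00000134422 (4930556L07Rik), AK131770 and AK028085, with r from 0.998 to 0.999. None of these 10 was well above background on an array outside testis. The points share arrays and scaling. With neither lincRNA well above background on the other 21 arrays, the correlation rests on the step from those to testis. Of the other named probes, 292 had r above 0.9 with uc029vff.1 and 308 with ENSMUST00000142990.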

How the data were processed

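Cy3-labeled RNA of 24 samples was hybridized to 1-color Arraystar mouse lncRNA arrays (V3) that the authors scanned and quantified with Agilent Feature Extraction 11.5.1.1. The deposited intensity of each spot, per the file headers, is background-subtracted and detrended, and it is not normalized between arrays. Signals of 60804 transcript probes were converted to log2 and scaled by subtracting the log2 75th percentile of their array. Detection required the deposited flag for a signal well above background on all 3 arrays. Groups were compared with limma 3.58.1 in R 4.3.3, on the 15 tissue arrays or the 12 arrays of testis and lines, with Benjamini-Hochberg adjustment over all probes. Calls required 5-fold and an adjusted p of 0.05. On simulated F9 and testis arrays with 200 of 60804 probes shifted by 3.5 (log2), 190 were recovered and 0 others were called. In the data, 20.0% of probes were called higher and 11.2% lower in F9 than in testis. With so few probes shifted, the simulation does not test the scaling. Names, positions and probes came from the supplementary tables, and gene positions and promoter windows from RefSeq (GRCm38.p6). Both lincRNAs, the gene lists and the tests were chosen with earlier results of these data known. Named transcripts were both lincRNAs, listed neighbors, chemokine genes, transcripts between 41 and 43 Mb, and the 5 most correlated transcripts of each lincRNA. A planned comparison with lincRNAs of like testis level was left out, since probe levels are not comparable. Arrays give no counting depth, and 3 per group limit the precision.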

Additional observations from a re-analysis of the deposited data

Results flagged for a closer look

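For some of the other named transcripts, the difference between a cell line and testis was not the same in all lines. This was by limma on the difference between lines (adjusted over all probes). Of the 6 between 41 and 43 Mb, 2 were called in F9 minus GC-1, 1 in F9 minus GC-2 and 1 in GC-1 minus GC-2. Cxcl14, also given here, lies on another chromosome. The Ccl27a noncoding transcript was 4.28 higher in F9 than in GC-1 (log2 difference, adjusted p = 9.41e-08, or at least 17.7-fold, since GC-1 was not well above background). With normexp background correction it was 2.08, under the 5-fold minimum. Its GC-1 minus GC-2 difference was -5.30 (adjusted p = 5.08e-08, at least 35.9-fold). AK145626 was 5.83 higher in F9 than in GC-1 (adjusted p = 3.61e-09) and 5.36 higher in F9 than in GC-2 (adjusted p = 6.51e-09), with all 3 F9 arrays above all arrays of both other lines. The noncoding transcript of Cxcl14 differed by -3.90 in F9 minus GC-2 (adjusted p = 6.77e-06, at least 3.62-fold) and by -4.34 in GC-1 minus GC-2 (adjusted p = 7.49e-06, at least 4.96-fold), and with normexp both missed the 5-fold minimum, at -0.85 and -1.12. Across the array, 7.16% of probes differed between F9 and GC-1, 6.95% between F9 and GC-2 and 3.32% between GC-1 and GC-2. Neither lincRNA was among them.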

How the results depend on the processing

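Under every alternative with a test, both lincRNAs were called lower in all 3 lines than in testis and none of their 6 differences between lines was called. The slide that held every group has 1 array per group and gave no test. Each lincRNA was detected in 1 group under both other detection rules. Their fitted values moved with scaling and background, and where no array was well above background a fitted value is no bound. On the slide that held every group, uc029vff.1 minus testis was -7.75 in GC-1 and -8.14 in GC-2, and ENSMUST00000142990 was at -6.54 for F9, -6.58 for GC-1 and -6.98 for GC-2. Testis minus the nearest tissue was 5.82 for uc029vff.1 and 4.80 for ENSMUST00000142990. With the percentile over probes well above background on all arrays it was 7.14 and 6.12, with quantile normalization 7.15 and 6.38, with no scaling 8.77 and 7.91, and with normexp on median signals 3.00 and 2.10, which ended the testis-specific call of ENSMUST00000142990. The normexp setting was chosen after seeing the data, because the mean signal of the planned version was not a column of the files used here.

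Without 1 array at a time, uc029vff.1 minus testis was -6.65 to -6.42 for F9, -7.44 to -6.93 for GC-1 and -7.67 to -7.30 for GC-2. ENSMUST00000142990 was at -6.06 to -5.62, -6.42 to -6.29 and -6.55 to -6.12. Testis minus the nearest tissue ran from 5.66 to 5.98 and from 4.63 to 4.96.

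Probes lower in F9 than in testis numbered 6825, against 11648 with the percentile over detected probes, 14111 with no scaling, 3493 with normexp and 11381 with no fold minimum. For GC-1 the count was 7214, against 11614, 12224, 3689 and 11856, and for GC-2 it was 7560, against 12230, 12002, 3796 and 12168. Between F9 and GC-1, 4355 differed, against 1252 with normexp and 15400 with no fold minimum, and between F9 and GC-2 4223, against 1274 and 15435. Between GC-1 and GC-2, 2016 differed, against 544 with normexp, 6680 with no fold minimum and 1237 with the methods' t-test. The cause was not tested.

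The percentile over detected probes lowered the scaled level of every probe by 3.42 in testis and by 5.01, 4.89 and 4.96 in F9, GC-1 and GC-2. Gm12404 in testis minus liver turned from -2.65 to 0.46 with no scaling. AK145626 in F9 minus testis turned from 1.72 to -0.38 with no scaling, and in GC-1 minus GC-2, which was not called, from -0.46 to 0.11 on the shared slide. The Ccl27a transcript and AK145626 passed the 5-fold minimum over brain with the percentile over detected probes, quantile normalization or no scaling. With normexp, the Ccl27a transcript missed it in F9 against GC-1, at 2.08.

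Replicate numbers are shared by all groups. Over same-numbered arrays, 84 correlations of deviations from group means ran from -0.15 to 0.33. Their median was 0.13 for replicate 1, whose 8 arrays share a slide, and 0.05 and 0.04 for replicates 2 and 3. The numbers were not taken as pairs. These correlations include the cell lines, which share no animal with a tissue. They thus cannot settle whether same-numbered organs came from the same mouse. With slide as a block, both lincRNAs were called lower in all 3 lines (highest adjusted p = 1.63e-06). With a replicate block, the counts of lower probes were 6821 for F9, 7208 for GC-1 and 7559 for GC-2, and no call of the lincRNAs changed.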
